A study of Mus musculus with 26 samples.

Results

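The genes described here are 10 ligands and surface enzymes through which tumor cells restrain, or in some cases engage, T cells, NK cells and macrophages. They were taken from a table of RNA sequencing counts by their symbols, ignoring case, and all 10 were found among its 55391 gene rows. Cd274 and Pdcd1lg2 encode PD-L1 and PD-L2, Cd276, Vtcn1 and Cd80 encode the B7 family proteins B7-H3, B7-H4 and CD80, Pvr and Nectin2 encode CD155 and CD112, and Cd47, Lgals9 and Nt5e encode CD47, galectin-9 and CD73. The counts came from the murine lung cancer lines EA1, EA2 and EA3, all isolated from C57BL/6 mice and all driven by an EML4-ALK fusion. Each line was grown as a monoculture in 10 cm dishes with 100 nM alectinib, an inhibitor of the ALK kinase, or with its solvent at 0.1% DMSO, and cells were collected on days 1, 2, 3 and 5, with a single library for each combination. This gives 24 libraries, 4 per line and treatment, in which the 4 days stood in for replicates. No day was repeated within a line and treatment, and a line is a single isolate of its tumor. The p-values therefore set the alectinib effect, and the differences between lines, against their variation from day to day. A further 2 libraries labelled EA3 day 7 resembled EA2 more than EA3 and were not used for the values below.

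These proteins share a logic but not a receptor. PD-L1 and PD-L2 bind PD-1 on activated T cells and dampen signaling through the T cell receptor, CD80 binds both the activating receptor CD28 and the inhibitory receptor CTLA-4, and B7-H3 and B7-H4 are mostly inhibitory ligands whose receptors are less well defined. CD155 and CD112 can activate NK cells and T cells through CD226 or inhibit them through TIGIT and related receptors. CD47 gives macrophages a signal through SIRPα not to engulf the cell, galectin-9 is a secreted and surface lectin that binds TIM-3 among other glycoproteins, and CD73 converts extracellular AMP to adenosine, which suppresses T cells. The question put to the data was which of these genes the lines transcribed, how the lines differed, and how inhibition of ALK moved the levels. The counts are of RNA, and levels of the proteins were not measured here.

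Library totals ran from 5780062 to 11732401 counts with a median of 9252878, so that a count of 3, taken as the floor of detection for counting error alone, stood for 0.251 to 0.530 CPM (the count relative to the library total, scaled with TMM factors). Of 4 genes that report MAPK signaling downstream of ALK, 4 fell with alectinib in each line. For the 3 lines in the order EA1, EA2, EA3, the log2 fold changes were -3.70, -6.66 and -4.52 for the transcription factor gene Etv5 (adjusted p at most 1.28e-05 by edgeR's quasi-likelihood test). Those of Spry4, a feedback inhibitor of the pathway, were -4.31 in EA1 and -5.77 in EA3, and in EA2 its level was 140 times higher with DMSO (95% counting interval 78.1 to 281), since the alectinib libraries held 0 to 9 counts. The cultures held epithelial transcripts, with at least 44.9 CPM of Cdh1 and 238 CPM of Krt18 in every library, but Epcam reached at most 7 counts in any EA2 library, Nkx2-1 at most 7 and Sftpc at most 1 in any library of the 3 lines. Of 18 leukocyte markers, Ptprc reached at most 4 counts and Cd4 and Tyrobp were at 0 throughout, whereas Cd14 reached 219.7 CPM in EA3 and Cd68 87.3 CPM in DMSO cultures of EA2.

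Among the 10 members, 9 had enough counts to be tested and 1, Pdcd1lg2, had 0 counts in each of the 24 libraries. To compare genes with each other, CPM was divided by the length of the annotated exons. In EA1 with DMSO, Cd47 stood first with 39.1 ± 11.3 CPM per kb (mean ± SD, n = 4 here and below), followed by Pvr (30.7 ± 22.3), Nt5e (26.4 ± 17.9), Cd276 (25.8 ± 3.32), Lgals9 (19.1 ± 10.1) and Nectin2 (13.4 ± 3.31). Each of these 6 overlapped its neighbor in the order over the 4 days, whereas Cd80 at 1.58 ± 0.797 lay below Nectin2 and above Vtcn1 (0.175 ± 0.117) with no overlap. In EA2 with DMSO the order was Cd276 (28.9 ± 2.42), Cd47 (25.1 ± 5.25), Pvr (12.8 ± 6.21), Nectin2 (10.2 ± 2.79), Lgals9 (8.91 ± 2.36) and Nt5e (3.44 ± 2.27), again with overlap between neighbors, and Cd274 followed without overlap at 0.438 ± 0.0258. In EA3 with DMSO it was Nectin2 (38.2 ± 10.4), Cd47 (35.8 ± 10.4), Cd276 (26.4 ± 4.67), Lgals9 (25.0 ± 8.50), Pvr (23.1 ± 14.7), Nt5e (8.18 ± 7.13), Cd274 (0.700 ± 0.569) and Vtcn1 (0.578 ± 0.516), all neighbors overlapping. The genes for PD-L1, B7-H4 and CD80 were thus 1.58 CPM per kb or less on average in every line with DMSO.

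**Figure D1:**
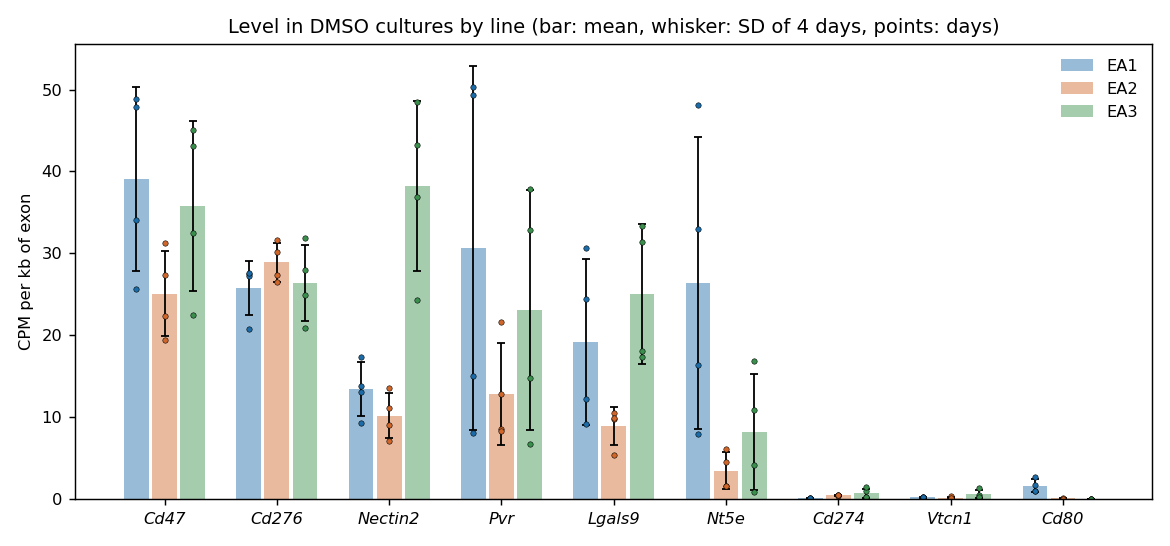
Level of each tested gene in DMSO as CPM per kb of exon (vertical axis), by line, with the bar at the mean of the 4 days, the whisker at ± 1 SD and a point for each day. Cd47 and Cd276 were high in all 3 lines, Nectin2 led in EA3 at 38.2 and Nt5e stood out in EA1 at 26.4, while Cd274, Vtcn1 and Cd80 lay close to 0 except for Cd80 in EA1. Pdcd1lg2, with 0 counts, is not drawn.

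Across the 12 DMSO libraries, with the day as a term, 7 of the 9 tested members differed between the lines beside 54.9% of all 14264 genes tested. The pairwise differences past the threshold, an adjusted p of 0.05, numbered 6 for EA2 against EA1 (39.9% of all genes), 4 for EA3 against EA1 (31.2%) and 4 for EA3 against EA2 (35.9%). Cd80 was highest in EA1, with 33 to 92 counts per DMSO library against 0 to 5 in EA2 and 1 in each of EA3. From so few counts the ratio of the pooled levels is given with its exact 95% interval, which covers counting error alone, and it was 28.8 (14.4 to 67.7, adjusted p = 8.55e-06) for EA1 over EA2 and 48.7 (18.7 to 180.4, adjusted p = 1.23e-05) for EA1 over EA3. Nt5e was also highest in EA1, with -2.90 for EA2 minus EA1 (SE 0.32, adjusted p = 1.90e-05) and -1.98 for EA3 minus EA1 (SE 0.31, adjusted p = 0.000425). Nectin2 was highest in EA3, by 1.49 over EA1 (SE 0.17, adjusted p = 2.87e-05) and 1.92 over EA2 (SE 0.17, adjusted p = 2.99e-06). Cd274 was lowest in EA1, which had 2, 0, 3 and 3 counts on days 1, 2, 3 and 5, and the same ratio was 7.10 (3.39 to 17.2, adjusted p = 0.00490) for EA2 over EA1 and 9.74 (4.69 to 23.4, adjusted p = 0.00258) for EA3 over EA1. Lgals9 was lowest in EA2, with -1.03 for EA2 minus EA1 (SE 0.22, adjusted p = 0.00248) and 1.48 for EA3 minus EA2 (SE 0.22, adjusted p = 0.000200).

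For Pvr, Cd47, Nt5e, Nectin2 and Vtcn1, the call of at least 1 line difference depended on the fit. Pvr gave -0.99 for EA2 minus EA1 (SE 0.27, adjusted p = 0.0121), and -0.99, -0.88 and -0.71 without day 2, day 3 or day 5 (adjusted p = 0.0508, 0.0691 and 0.0716). Without the day term it was -1.30 (adjusted p = 0.126). The difference of Pvr for EA3 minus EA2, 0.65 with no call, passed with no filter (0.64, adjusted p = 0.0162) and without day 1 (1.01, adjusted p = 0.00637). Cd47 gave -0.65 for EA2 minus EA1 (SE 0.14, adjusted p = 0.00291) and 0.51 for EA3 minus EA2 (SE 0.14, adjusted p = 0.0143). Without the day term these were -0.68 and 0.53 (adjusted p = 0.0754 and 0.165), and without day 2 or day 5 the second was 0.44 and 0.46 (adjusted p = 0.107 and 0.0872). It was 0.37 with libraries scaled by their totals alone (0.0533) and 0.49 with no filter (0.0764). For Nt5e, EA3 exceeded EA2 by 0.92 (SE 0.31, adjusted p = 0.0359), against 0.71, 0.71 and 0.80 without day 2, 3 or 5 (adjusted p = 0.192, 0.183 and 0.166) and 1.26 without the day term (0.2399), and it was 0.78 with libraries scaled by their totals alone (0.0714). The difference of Nt5e between EA3 and EA1 without the day term was -1.71 (adjusted p = 0.130). Cd276 did not pass between lines (adjusted p = 0.733), with 95% intervals of -0.23 to 0.48 for EA2 minus EA1 and -0.36 to 0.36 for EA3 minus EA1, and neither did Vtcn1 (adjusted p = 0.140). Without day 3, Vtcn1 passed (adjusted p = 0.0370), with EA3 minus EA2 moving from 1.55 to 2.39 (adjusted p = 0.0244). Nectin2 gave -0.43 for EA2 minus EA1 (adjusted p = 0.0577), which passed with DESeq2 (-0.41, adjusted p = 0.0490) and without day 3 (-0.55, adjusted p = 0.0250). In bulk cultures such as these, fewer cells that express a gene and less RNA of it per cell cannot be told apart.

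With alectinib, 3 of 9 tested members passed the threshold in each line, 2 higher and 1 lower, and only Lgals9 was among them in all 3. The others were Cd276 (higher) and Pvr (lower) in EA1, Cd47 (higher) and Cd276 (lower) in EA2, and Vtcn1 (higher) and Nt5e (lower) in EA3. Over all genes, 18.0% (EA1), 13.0% (EA2) and 16.5% (EA3) were called higher and 15.8% (EA1), 11.3% (EA2) and 15.8% (EA3) lower, so that the share of members called lay near the background in each line. The median log2 fold change of the tested members (EA1, EA2, EA3) was -0.01, 0.16 and 0.03, beside 0.03, 0.00 and 0.04 over all genes, and it was 0.05, 0.16 and 0.20 over members that exceeded 3 counts in some library of the line. Calls over all genes were 53.2%, 53.6% and 51.0% higher with TMM factors but 64.6%, 48.3% and 64.8% higher when libraries were scaled by their totals alone, which moved the median of all genes to 0.16, -0.04 and 0.18. The direction of every call of a member was the same under both scalings. The effect of alectinib differed between the lines for 1 member, Cd276, beside 7.05% of all genes.

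**Figure D2:**
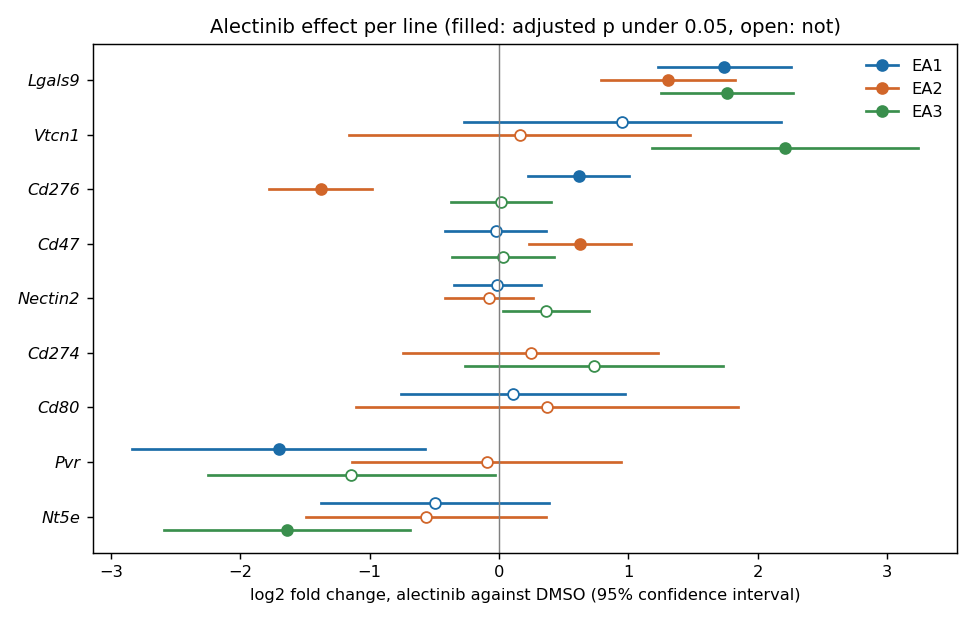
Log2 fold change of alectinib over DMSO (horizontal axis) for each gene and line, with 95% confidence intervals and filled points where the adjusted p was under 0.05. Lgals9 lay between 1.31 and 1.76 in the 3 lines, and Cd276 spanned 0.62 in EA1 to -1.38 in EA2, whereas pairs of gene and line with at most 3 counts in any library are not drawn.

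Galectin-9 transcripts rose with alectinib in all 3 lines. Lgals9 (ENSMUSG00000001123, chr11:78962974-78984946 on the minus strand of GRCm38) is shown with its promoter because it was the member called in all 3 lines. The RefSeq window from 250 bases before to 50 after its start site, chr11:78984875-78985174 on the minus strand of GRCm38.p6, reads as follows, with matches to an interferon-stimulated response element core in capitals.
Lgals9 promoter: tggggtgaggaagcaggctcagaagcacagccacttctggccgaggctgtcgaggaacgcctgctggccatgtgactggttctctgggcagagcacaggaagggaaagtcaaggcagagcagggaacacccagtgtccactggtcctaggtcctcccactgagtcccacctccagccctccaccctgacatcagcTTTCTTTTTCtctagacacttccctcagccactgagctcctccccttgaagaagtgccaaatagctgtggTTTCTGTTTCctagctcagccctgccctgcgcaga

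The letters searched, on both strands, were GAAA, any 2 bases and GAAA again for this core, TTCNNNGAA for the GAS element, TGANTCA for AP-1 and CACGTG for the E-box. Both capitalized stretches match the core on the opposite strand, and they begin at bases 196 and 266 of the window and do not overlap each other or another of the motifs. Of 32851 RefSeq promoter windows of this length, 3.44% hold the core, 8.30% the GAS letters, 7.81% the AP-1 letters and 7.15% the E-box.

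In EA1, Lgals9 measured 52.3, 65.5, 19.7 and 26.1 CPM on days 1, 2, 3 and 5 with DMSO and 156, 124, 107 and 121 CPM with alectinib. EA2 had 21.0, 22.4, 11.5 and 21.2 CPM with DMSO and 38.1, 43.8, 38.2 and 67.8 CPM with alectinib. EA3 had 67.0, 71.3, 36.9 and 38.7 CPM with DMSO and 187, 203, 180 and 146 CPM with alectinib. In each line the lowest alectinib library lay above the highest DMSO library, and the ratio exceeded 1 on 4 of 4 days. Alectinib over DMSO gave a log2 fold change of 1.74 in EA1 (SE 0.24, adjusted p = 0.000169), 1.31 in EA2 (SE 0.24, adjusted p = 0.00143) and 1.76 in EA3 (SE 0.24, adjusted p = 0.000145), or 3.35-fold, 2.47-fold and 3.39-fold. These 3 effects did not differ past the threshold (adjusted p = 0.530), although the interval for EA2 minus EA1 reached from -1.15 to 0.28. In CPM per kb, Lgals9 moved from the fifth of the members to the highest in EA1 (59.4 ± 9.65) with no overlap with Cd276 behind it, and likewise from the fourth to the highest in EA3 (83.7 ± 11.3) with no overlap with Nectin2. In EA2 it stood second at 22.0 ± 6.60, overlapping Cd47 at 38.8 ± 7.71.

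**Figure D3:**
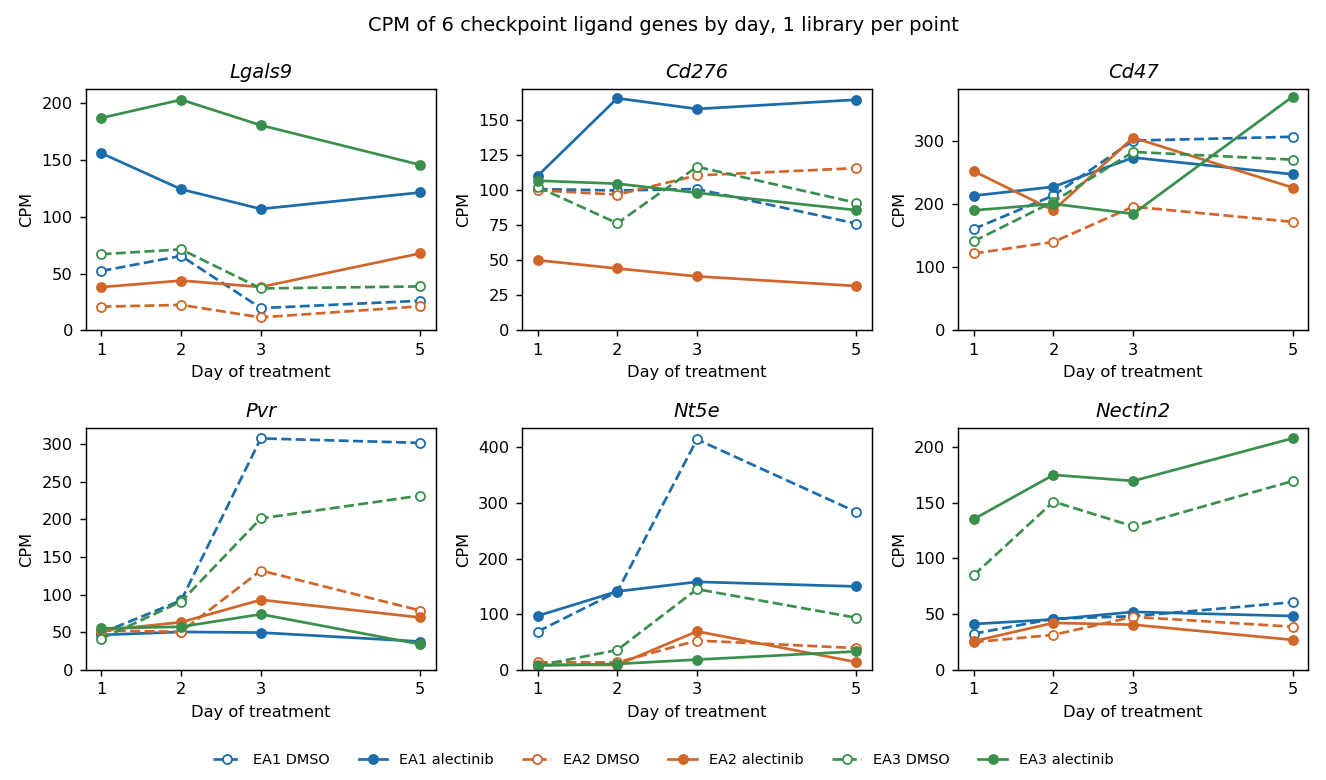
CPM by day of culture (horizontal axis, days 1, 2, 3 and 5) for Lgals9, Cd276, Cd47, Pvr, Nt5e and Nectin2, by line, with DMSO and alectinib as separate lines and a point per library. Alectinib lies above DMSO for Lgals9 throughout, Cd276 crosses from above in EA1 to below in EA2, and the DMSO values of Pvr climb from 49.0 to 302 CPM in EA1 while those with alectinib stay between 37.6 and 50.3.

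B7-H3 transcripts responded in opposite directions in EA1 and EA2. Cd276 (ENSMUSG00000035914, chr9:58524298-58555437, minus strand) had 101, 99.7, 101 and 76.1 CPM with DMSO in EA1 and 110, 165, 158 and 164 CPM with alectinib. In EA2 the values were 99.9, 96.8, 110 and 116 CPM with DMSO and 50.1, 44.2, 38.6 and 31.7 CPM with alectinib. In EA3 they were 102, 76.4, 117 and 91.0 CPM with DMSO and 107, 105, 98.1 and 85.7 CPM with alectinib. The treatments did not overlap in EA1, where alectinib was higher, nor in EA2, where it was lower, and they overlapped in EA3. From DMSO means of 94.3, 106 and 96.6 CPM in EA1, EA2 and EA3, Cd276 rose by 0.62 on the log2 scale in EA1 (SE 0.18, adjusted p = 0.0189) and fell by 1.38 in EA2 (SE 0.19, adjusted p = 0.000136), while EA3 gave 0.01 (SE 0.18, adjusted p = 0.961). The difference itself passed (adjusted p = 0.00169 over the 3 lines). EA2 minus EA1 was -1.99 (SE 0.26, adjusted p = 0.000951, 6.48% of all genes called), EA3 minus EA2 was 1.39 (SE 0.26, adjusted p = 0.0125, 3.07% called) and EA3 minus EA1 was -0.60 (SE 0.26, adjusted p = 0.284, 1.91% called). With days 1 and 2 alone, EA2 minus EA1 was -1.47 and no longer passed (adjusted p = 0.131), nor did the test over the 3 lines (0.148). The call in EA1 was lost without day 2, day 3 or day 5 (adjusted p = 0.0825, 0.0833 and 0.0886), with all 26 libraries (0.108) and with days 1 and 2 alone (0.226). That of EA3 minus EA2 was lost without the same days (0.0544, 0.0788 and 0.0528), with all 26 libraries (1.09, adjusted p = 0.209), with days 1 and 2 alone (0.178) and with days 3 and 5 alone (0.0811). The fit of all 26 libraries took those labelled EA3 day 7 as EA3, although they resembled EA2 more. The call in EA2 passed under all 14 alternatives. Of the exon bases of Cd276, 11.4% overlap Gm10657 on the other strand, and the strand setting of the counts is not given in the sources used here.

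The promoter of Cd276 is shown because it belongs to the member whose effect differed between lines, and its window, chr9:58554984-58555283 on the minus strand of GRCm38.p6, held none of the 4 motifs.
Cd276 promoter: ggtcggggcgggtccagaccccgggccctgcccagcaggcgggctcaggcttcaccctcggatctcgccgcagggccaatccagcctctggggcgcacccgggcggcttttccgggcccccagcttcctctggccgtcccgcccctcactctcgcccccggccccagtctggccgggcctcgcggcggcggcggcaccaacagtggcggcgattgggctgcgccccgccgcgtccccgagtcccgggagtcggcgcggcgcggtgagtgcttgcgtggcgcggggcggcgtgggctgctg

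B7-H4 transcripts were scarce but moved in EA3. Vtcn1 (ENSMUSG00000051076, chr3:100825459-100896922, plus strand) had 0.538, 1.40, 0.660 and 3.46 CPM with DMSO in EA3, from 5 to 21 counts, and 4.25, 5.45, 3.58 and 12.1 CPM with alectinib, from 38 to 112 counts. Every alectinib library of EA3 lay above every DMSO library, if only by a small margin between 3.46 and 3.58 CPM, and the ratio exceeded 1 on 4 of 4 days. The log2 fold change was 2.21 (SE 0.48, adjusted p = 0.00351), a 4.63-fold rise with a 95% interval of 2.27 to 9.45. With days 3 and 5 alone the value was 2.06 and no longer passed (adjusted p = 0.0946). In EA1, Vtcn1 ran from 0 to 0.646 CPM with DMSO and from 0.414 to 1.35 CPM with alectinib, and in EA2 from 0.149 to 0.802 and from 0.112 to 0.707 CPM. Neither line passed (0.95, SE 0.57, adjusted p = 0.209 and 0.16, SE 0.61, adjusted p = 0.902), and the effect was not shown to differ between lines (adjusted p = 0.205). The window of its promoter, chr3:100825209-100825508 on the plus strand of GRCm38.p6, is shown for its 1 match to the AP-1 letters, TGAGTCA, which begins at base 252, just after the start site.
Vtcn1 promoter: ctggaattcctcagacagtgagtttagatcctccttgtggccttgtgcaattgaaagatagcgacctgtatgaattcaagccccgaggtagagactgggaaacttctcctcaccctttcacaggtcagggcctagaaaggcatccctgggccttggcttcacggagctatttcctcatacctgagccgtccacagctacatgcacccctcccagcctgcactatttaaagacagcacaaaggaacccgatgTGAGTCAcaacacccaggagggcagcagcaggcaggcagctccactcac

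CD80 transcripts were found mainly in EA1. Cd80 (ENSMUSG00000075122, chr16:38455561-38496335, plus strand) had 3.45, 3.79, 9.83 and 6.33 CPM with DMSO in EA1 and 3.67, 5.76, 6.42 and 9.13 CPM with alectinib, and the treatments overlapped. Its log2 fold change there was 0.11 (SE 0.40, adjusted p = 0.856, 95% interval -0.75 to 0.97). In EA2 it reached at most 5 counts in a library, and in EA3 at most 1, so that no fold is given for EA3, where both treatments lay under the floor. Its promoter window held 1 match to the AP-1 letters.

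PD-L1 transcripts were few in every line. Cd274 (ENSMUSG00000016496, chr19:29367455-29388095, plus strand) did not exceed 3 counts in any EA1 library with either treatment, and no fold is given for that line. In EA2 it had 1.61, 1.49, 1.70 and 1.55 CPM with DMSO and 1.78, 2.30, 2.14 and 1.46 CPM with alectinib, which overlapped. In EA3 it had 0.808, 0.933, 3.30 and 5.11 CPM with DMSO and 2.40, 4.03, 4.71 and 2.71 CPM with alectinib. Alectinib was higher on days 1, 2 and 3 but lower on day 5, and the treatments overlapped. The log2 fold change was 0.24 in EA2 (SE 0.46, adjusted p = 0.740, 95% interval -0.74 to 1.23) and 0.74 in EA3 (SE 0.46, adjusted p = 0.243, 95% interval -0.26 to 1.73), so that the intervals reached up to 2.34-fold and 3.32-fold. Without day 5 the value in EA3 was 1.35 (adjusted p = 0.0617), and with days 3 and 5 alone it was -0.19. Pdcd1lg2, which begins 22.8 kb beyond the end of Cd274 on the same strand (ENSMUSG00000016498, chr19:29410919-29471161), had 0 counts in all 24 libraries, which allows up to 0.530 CPM in the shallowest.

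Because PD-L1 is known to be induced by interferon, the window of the Cd274 promoter is given beside that of Lgals9. It lies at chr19:29367188-29367487 on the plus strand of GRCm38.p6 and none of the 4 motifs was found in it. Of the exon bases of Cd274, 14.1% overlap the antisense gene AC119228.1.
Cd274 promoter: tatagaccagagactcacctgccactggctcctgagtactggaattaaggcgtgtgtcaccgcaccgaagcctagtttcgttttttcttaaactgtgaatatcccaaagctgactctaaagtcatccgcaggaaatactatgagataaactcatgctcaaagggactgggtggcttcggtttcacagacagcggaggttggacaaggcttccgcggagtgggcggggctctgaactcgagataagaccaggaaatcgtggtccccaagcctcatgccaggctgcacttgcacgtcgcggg

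**Figure D4:**
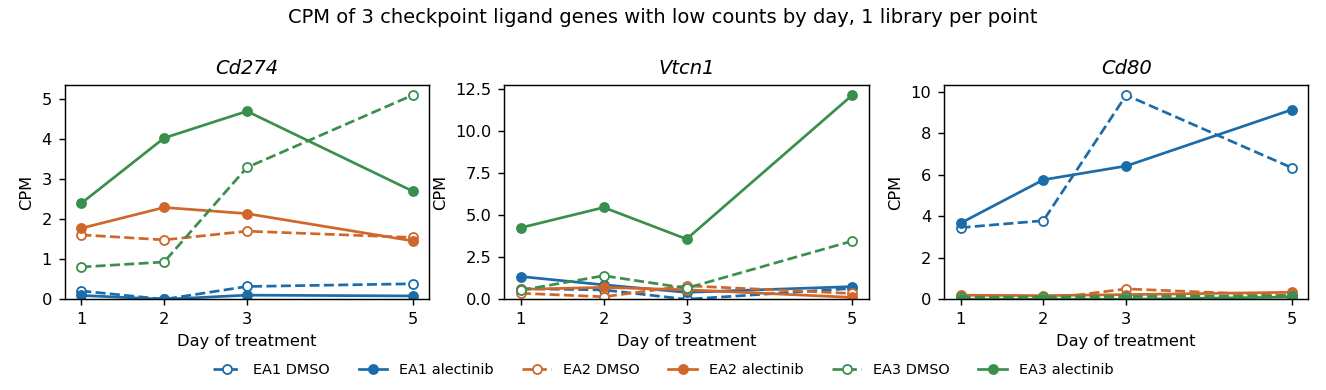
CPM by day of culture (horizontal axis, days 1, 2, 3 and 5) for the low genes Cd274, Vtcn1 and Cd80, by line and treatment, with a point per library. Vtcn1 with alectinib in EA3 reaches 12.1 CPM on day 5, Cd80 is seen in EA1 with values from 3.45 to 9.83 CPM, and Cd274 in EA3 crosses between the treatments.

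The genes for the ligands of TIGIT and CD226, Nectin2 and Pvr, lie 153.1 kb apart on the same strand of chromosome 7. Pvr (ENSMUSG00000040511, chr7:19903578-19921160, minus strand) had 49.0, 92.2, 308 and 302 CPM with DMSO in EA1 and 46.4, 50.3, 49.5 and 37.6 CPM with alectinib. In EA3 it had 41.4, 90.7, 201 and 232 CPM with DMSO and 55.1, 57.3, 73.9 and 34.0 CPM with alectinib. In EA2 it had 52.2, 50.5, 132 and 78.8 CPM with DMSO and 52.2, 63.3, 93.1 and 69.6 CPM with alectinib. The separation of treatments in EA1 and EA3 was thus wide on days 3 and 5, where DMSO cultures were high and alectinib cultures were not, and the treatments overlapped over the 4 days in all 3 lines. In log2 terms the effect was -1.70 in EA1 (SE 0.52, adjusted p = 0.0245), -1.14 in EA3 (SE 0.51, adjusted p = 0.108) and -0.10 in EA2 (SE 0.48, adjusted p = 0.917). Without day 3 or day 5 the value in EA1 was -1.33 and -1.23 (adjusted p = 0.175 and 0.0766). In EA3 the adjusted p was 0.0231 without day 1, 0.0404 without the day block, 0.0410 with DESeq2, 0.0460 with all 26 libraries and 1.68e-06 with no filter, and the value was -0.57 without day 5. A split of the days was made after seeing these data, so that it only describes them. In it, days 1 and 2 alone gave -0.50 in EA1 (adjusted p = 0.319) and -0.16 in EA3 (0.748). Days 3 and 5 alone gave -2.82 (0.00110) and -2.10 (0.00527), the difference between lines then passing as well (0.0469). With all 4 days that difference had an adjusted p of 0.286, or 5.03e-06 with no filter on low counts.

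Nectin2 (ENSMUSG00000062300, chr7:19716644-19750483, minus strand) was not called in any line, and 3.86% of its exon bases overlap Gm20512 on the other strand. In EA3 it had 84.9, 151, 129 and 169 CPM with DMSO and 135, 175, 169 and 208 CPM with alectinib, higher on 4 of 4 days with overlap between the treatments. The log2 fold change was 0.36 (SE 0.16, adjusted p = 0.0886), and it was 0.51 (adjusted p = 0.0231) when libraries were scaled by their totals alone. In EA1 and EA2 it ran from 24.8 to 60.6 CPM over both treatments, with log2 fold changes of -0.01 (95% interval -0.35 to 0.33) and -0.08 (-0.42 to 0.27), and CPM was higher with alectinib on 2 of 4 days in each.

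CD47 transcripts were abundant everywhere and rose with alectinib in EA2. Cd47 (ENSMUSG00000055447, chr16:49800533-49915010, plus strand) had 122, 140, 196 and 172 CPM with DMSO in EA2 and 252, 190, 305 and 226 CPM with alectinib. The ratio exceeded 1 on 4 of 4 days, but the alectinib library of day 2 lay below the DMSO library of day 3. The log2 fold change was 0.63 (SE 0.18, adjusted p = 0.0226). It lost the call without day 1, day 2 or day 3 (adjusted p = 0.107, 0.0649 and 0.0507) and without the day block (0.0823). EA1 had 161, 214, 301 and 307 CPM with DMSO and 213, 227, 274 and 247 CPM with alectinib, and EA3 had 141, 204, 283 and 270 CPM with DMSO and 190, 200, 185 and 370 CPM with alectinib. In both of these lines the treatments overlapped, and the log2 fold changes were -0.03 (SE 0.18, 95% interval -0.42 to 0.37) and 0.03 (SE 0.18, -0.36 to 0.43). The effect did not differ between lines past the threshold (adjusted p = 0.188).

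CD73 transcripts were lower with alectinib in EA3. Nt5e (ENSMUSG00000032420, chr9:88327197-88372092, plus strand) had 7.45, 35.6, 145 and 93.6 CPM with DMSO in EA3 and 7.58, 10.6, 18.4 and 33.0 CPM with alectinib. The treatments were nearly equal on day 1 and lay apart on days 2, 3 and 5, and they overlapped over the 4 days. The log2 fold change was -1.64 (SE 0.44, adjusted p = 0.0126), with adjusted p of 0.0694 without day 2 and 0.0519 without day 5. In EA1 it had 68.6, 140, 414 and 284 CPM with DMSO and 97.0, 141, 158 and 150 CPM with alectinib, and in EA2 13.6, 13.2, 52.6 and 39.0 CPM with DMSO and 8.89, 8.66, 69.1 and 13.8 CPM with alectinib. Both overlapped, with log2 fold changes of -0.49 (SE 0.41, adjusted p = 0.367) and -0.57 (SE 0.43, adjusted p = 0.372), and the effect did not differ between lines past the threshold (adjusted p = 0.339). With no filter on low counts it did (adjusted p = 0.00323), by -1.13 for EA3 minus EA1 (0.00845) and -1.08 for EA3 minus EA2 (0.0147). Of these, EA3 minus EA2 was -1.07 with the filter, -0.22 without day 3 (adjusted p = 0.878) and -0.33 with days 1 and 2 alone (0.853).

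A ratio to DMSO also moves when the DMSO cultures do, and 1 member had a slope past the threshold there. In DMSO, Pvr rose over days in EA3, by 1.16 on the log2 scale per doubling of days (SE 0.29, adjusted p = 0.0430), and its slope in EA1 was 1.28 (SE 0.30, adjusted p = 0.0584). The latter passed with DESeq2 (0.000341), no filter (3.58e-06), at least 10 counts in every library (0.0465) and without day 3 (0.00425). The slope of Nt5e in EA3 was 1.88 (SE 0.51, adjusted p = 0.0556), and it passed with DESeq2 (4.31e-05), no filter (5.52e-10), at least 10 counts (0.0490), without day 3 (1.52, adjusted p = 0.00352) and without day 5 (2.66, adjusted p = 0.0416), but was 0.92 without day 1 (adjusted p = 1). That of Lgals9 was negative in all 3 lines, from -0.60 to -0.07, with no call. Nt5e in EA1 (1.08, adjusted p = 0.265) passed with no filter and without day 3, and Cd47 in EA3 (0.45, adjusted p = 0.127) with DESeq2. Pvr in EA3 was the 1 call among the members, beside 1.64% (EA1), 0% (EA2) and 5.24% (EA3) of all genes. At an unadjusted p under 0.05 there were 10 of 27 tests, or 37.0%, beside 13.2% over all genes. The call of Pvr in EA3 did not pass without day 1, day 2 or day 5 (adjusted p = 1, 0.119 and 0.126). With alectinib no member had a slope past the threshold, beside 0%, 0.0631% and 0.673% of all genes, and DESeq2 also called 0. By edgeR 4 of 27 of these tests had an unadjusted p under 0.05, or 14.8%, beside 10.9% of the tests over all genes. The slope of the alectinib effect on log2 day passed for 0 members by edgeR, beside 0.0210%, 0% and 0.0631% of all genes, with 5 of 27 tests at an unadjusted p under 0.05, or 18.5%, beside 10.1% over all genes. DESeq2 called 2 of these, both for Pvr, whose slope of the effect was -1.36 (SE 0.22) in EA1 and -1.36 (SE 0.22) in EA3, with adjusted p of 0.136 and 0.0535 by edgeR. After line means were subtracted, log2 CPM of Pvr over the 24 libraries ran with Nt5e (Pearson r = 0.73) and against Lgals9 (r = -0.76), as a description of libraries that share days and lines.

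The genes around these ligands were read from fixed lists, and each list is given by its counts. These stand beside 18.0% (EA1), 13.0% (EA2) and 16.5% (EA3) of all genes called higher and 15.8%, 11.3% and 15.8% called lower. Of the other B7 and butyrophilin-like ligands, 4 of 11 were tested, with 1 higher and 1 lower in EA1, 1 higher in EA2 and 2 lower in EA3. Vsir, which encodes the checkpoint protein VISTA, rose by 2.64 in EA1 (SE 0.53, adjusted p = 0.00208) and 2.21 in EA2 (SE 0.45, adjusted p = 0.00288) and fell by 1.42 in EA3 (SE 0.52, adjusted p = 0.0497), and these effects differed between lines (adjusted p = 0.00757). Its mean level stayed at or below 10.4 CPM. Igsf11, a ligand of VISTA, fell by 1.57 in EA1 (SE 0.50, adjusted p = 0.0268), with a value of -0.89 without day 5 (0.0561). Ceacam1, a ligand of TIM-3, fell by 1.41 in EA3 (SE 0.43, adjusted p = 0.0225). Among the nectins and nectin-like molecules, 7 of 9 were tested, with 2 higher and 1 lower in EA1, 1 and 1 in EA2 and 2 higher in EA3. Nectin3, an adhesion partner of the CD155 and CD112 proteins, rose by 2.02 in EA3 (SE 0.36, adjusted p = 0.00181), Nectin1 rose by 1.11 in EA1 (SE 0.26, adjusted p = 0.00541), and the adhesion gene Cadm1 fell by 1.11 in EA1 (SE 0.24, adjusted p = 0.00357) and fell by 1.85 in EA2 (SE 0.25, adjusted p = 0.000157).

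Of 12 tested regulators of PD-L1 protein, 0 were higher and 1 lower in EA1, 2 and 1 in EA2, with 4 and 2 in EA3. Cmtm6, which keeps PD-L1 at the cell surface, was lower in all 3 lines, at -0.58, -0.60 and -0.39 (SE 0.13 in each, adjusted p at most 0.0318). Cmtm4, its relative, rose by 0.70 in EA3 (SE 0.15, adjusted p = 0.00328), and Hip1r, which sends PD-L1 to the lysosome, rose by 1.55 in EA2 (SE 0.29, adjusted p = 0.00178) and 0.95 in EA3 (SE 0.29, adjusted p = 0.0212). The glycosyltransferase gene B3gnt3 fell by 0.64 in EA3 (SE 0.17, adjusted p = 0.0109). Of 8 tested CD47 partners and modifying enzymes, 5 were higher in EA1, 2 higher and 1 lower in EA2, and 3 higher in EA3. The shares of all genes called higher were 18.0%, 13.0% and 16.5%, with 11.3% lower in EA2. Thbs1, which encodes the CD47 ligand thrombospondin-1, rose by 4.50, 3.45 and 3.13 (SE at most 0.44, adjusted p at most 0.000121), from 213 ± 106 to 4445 ± 1152 CPM in EA1. Qpct, a glutaminyl cyclase gene, rose by 2.69 in EA1 (SE 0.44, adjusted p = 0.000596) and 1.25 in EA3 (SE 0.43, adjusted p = 0.0401). It gave -0.83 in EA2 without passing (adjusted p = 0.124), and Qpctl, also on this list, passed in no line (adjusted p at least 0.0574). Thbs2 fell in EA2 (adjusted p = 0.00902), with 12 to 43 counts with DMSO and 1 to 4 with alectinib, a ratio of 9.53 (95% counting interval 4.83 to 21.4).

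Of 8 tested galectins and galectin-9 partners, 1 was higher and 2 lower in EA1, 1 and 2 in EA2, with 0 and 3 in EA3. Lgals8, a related galectin gene, rose by 0.59 in EA1 (SE 0.19, adjusted p = 0.0312) and 1.04 in EA2 (SE 0.20, adjusted p = 0.00181). Havcr2, which encodes the galectin-9 receptor TIM-3, fell in all 3 lines, with log2 fold changes of -1.71 in EA1 (SE 0.42, adjusted p = 0.00718), -3.48 in EA2 (SE 0.53, adjusted p = 0.000396) and -5.64 in EA3 (SE 0.62, adjusted p = 3.81e-05), and the effects differed between lines (adjusted p = 0.0175). Its mean was 47.5 ± 36.1, 9.41 ± 2.56 and 21.8 ± 19.8 CPM with DMSO and 13.7 ± 7.10, 0.795 ± 0.359 and 0.334 ± 0.273 CPM with alectinib. In EA3 its alectinib libraries held 1 to 7 counts, the level with DMSO was 52.2 times as high (95% counting interval 30.9 to 96.1), and the log2 fold change was -6.44 without day 1 and -4.76 without day 5. P4hb, a galectin-9 binding disulfide isomerase gene, fell by 0.53 in EA3 (SE 0.17, adjusted p = 0.0280).

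Of 14 tested genes of the adenosine pathway, 5 were higher and 4 lower in EA1, 1 and 3 in EA2, with 4 and 4 in EA3. In the same order, 18.0%, 13.0% and 16.5% of all genes were called higher and 15.8%, 11.3% and 15.8% lower. Enpp3, an ectoenzyme that cleaves extracellular nucleotides, rose by 2.86 in EA1 (SE 0.35, adjusted p = 6.03e-05) and 3.76 in EA3 (SE 0.38, adjusted p = 2.08e-05), and the phosphatase gene Alpl rose by 5.12 in EA1 (SE 0.57, adjusted p = 4.34e-05) and 2.34 in EA3 (SE 0.68, adjusted p = 0.0187). In EA3 the alectinib library of day 5 had 121 CPM of Alpl and the others 0.554 to 5.998, and without that day the value was 1.29 (adjusted p = 0.221). In EA2 Alpl was lower without passing (adjusted p = 0.210), with 2 to 14 counts with DMSO and 0 to 2 with alectinib, and its effects differed between lines (adjusted p = 0.0116). Slc29a1, a nucleoside transporter, was lower in all 3 lines at -1.14, -1.03 and -1.62 (SE at most 0.23, adjusted p at most 0.00399), and the adenosine receptor gene Adora2a likewise (adjusted p at most 0.0481), with a log2 fold change of -2.81 in EA3. With alectinib Adora2a had 0 to 3 counts per library in EA1 and EA2, and its level with DMSO was 9.23 (95% counting interval 3.65 to 29.9) and 3.96 (1.61 to 11.7) times as high.

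Of 14 tested genes from the interferon gamma receptor to Irf1, 6 were higher and 3 lower in EA1, 2 and 3 in EA2, with 6 and 3 in EA3. The shares of all genes were 18.0% and 15.8%, 13.0% and 11.3%, and 16.5% and 15.8%. Stat2, which encodes a transcription factor of interferon signaling, rose by 1.32 in EA1 (SE 0.30, adjusted p = 0.00420) and 0.94 in EA3 (SE 0.28, adjusted p = 0.0210). In EA2 its value was 0.54 (adjusted p = 0.191). Socs1, an inhibitor of the same pathway, fell by 2.57 in EA2 (SE 0.41, adjusted p = 0.000508), and Nlrc5, an activator of MHC class I genes, was called lower in EA1 (adjusted p = 0.0349) from 12 counts over the 4 DMSO libraries and 1 over the 4 alectinib libraries, so that no fold is given. Of 9 costimulatory TNF-family ligands only Tnfsf9, the ligand of CD137, was tested, and it was lower in all 3 lines at -1.35, -1.48 and -2.35 (SE at most 0.37, adjusted p at most 0.0101). Of 12 receptors on T, NK and myeloid cells, 5 were tested and 1 passed, Tigit, which fell by 4.03 in EA2 (SE 0.44, adjusted p = 3.26e-05) and fell by 2.39 in EA3 (SE 0.40, adjusted p = 0.000679) from means of 7.54 and 5.38 CPM. Cd226 and Btla were at 0 in all libraries. Of the 47 calls of genes named from these lists, 16 missed the threshold without at least 1 of the 4 days (adjusted p from 0.0535 to 0.302), and none changed direction. They were the calls of Igsf11, Nectin1, Lgals8 and Nlrc5 in EA1, of Thbs2, Adora2a and Tnfsf9 in EA2, and of Vsir, Ceacam1, Hip1r, B3gnt3, Cmtm6, Qpct, P4hb, Alpl and Stat2 in EA3. Among them, Adora2a in EA2 and Vsir, Cmtm6 and P4hb in EA3 missed the threshold whichever day was left out.

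**Figure D5:**
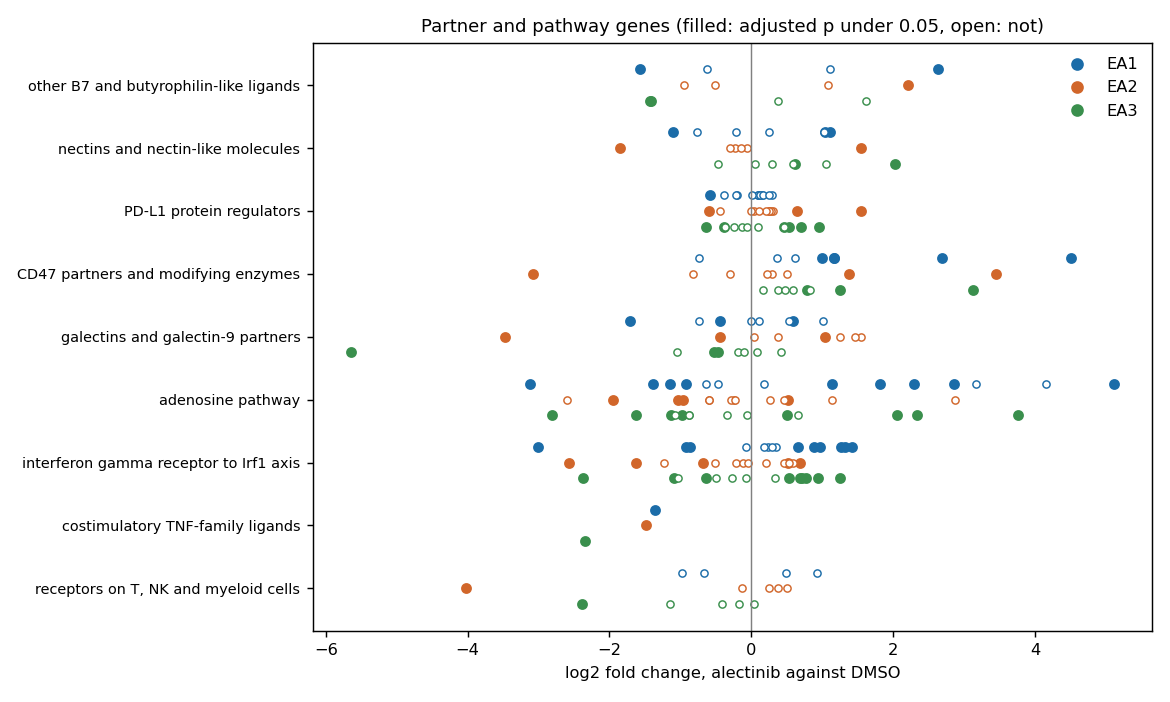
Log2 fold change of alectinib over DMSO (horizontal axis) for the tested genes of each list around the ligands (rows), with 1 point per gene, a color per line and filled points where the adjusted p was under 0.05. The points furthest from 0 are Alpl in the adenosine row at 5.12 and Thbs1 in the CD47 row at 4.50, both in EA1, and Havcr2 in the galectin row at -5.64 in EA3, where its alectinib libraries held 1 to 7 counts, while a gene at 0 counts in a line is not drawn there.

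Of the marker lists of other cell types, that of fibroblasts separated the treatments in all 3 lines. Its 10 genes summed to 10.5 to 48.6 CPM with DMSO and 589 to 1166 CPM with alectinib in EA1, 59.3 to 72.5 and 250 to 1437 CPM in EA2, and 10.2 to 20.2 and 87.3 to 301 CPM in EA3. With alectinib the sum was led by the contractile gene Acta2 in EA1 and EA2 (means of 546 and 462 CPM) and by the collagen gene Col1A1 in EA3 (133 CPM). With DMSO it was led by Pdgfrb in EA1 (19.4 CPM), Dcn in EA2 (45.4 CPM) and Col1A1 in EA3 (12.4 CPM). Over both treatments Col1A1 reached 61.3, 15.6 and 180.3 CPM in the 3 lines and Pdgfra at most 3.68 CPM. The 12 epithelial markers summed to 1811 to 2695 CPM with DMSO and 568 to 1172 CPM with alectinib in EA2, where Krt18 led and the treatments did not overlap. In EA1 they summed to 4677 to 9313 and 3285 to 5421 CPM and in EA3 to 5379 to 7963 and 3621 to 8619 CPM, with overlap in both. The 18 leukocyte markers summed to 25.3 to 229 CPM over all libraries and overlapped between treatments in each line, led by Cd14 in EA1 and EA3 and by Cd68 in EA2. The 8 endothelial markers summed to at most 9.89 CPM, with Tie1 and Cldn5 at 0, and separated the treatments in EA2 (2.06 to 6.11 CPM with DMSO and 0.354 to 1.13 CPM with alectinib) but not in EA1 or EA3. The part of these shifts in the changes of the ligands was not tested.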

How the data were processed

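RNA from the 3 lines was sequenced from poly(A)-selected, stranded libraries as paired reads. According to the submitters' notes and the methods, reads were checked with FastQC, trimmed with bbduk and mapped to mm10 with STAR. The values the authors deposited are raw counts per gene from STAR's own counter, without normalization; the annotation release and strand setting are not given in the sources used here. Of 55415 rows, 24 held dates in place of a symbol (0.129% to 0.201% of the counts per library) and entered neither library sizes nor tests. All 26 columns were matched to samples by their labels.

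The 24 libraries of days 1 to 5 were fitted in edgeR 4.0.16 under R 4.3.3 (TMM, filterByExpr by line and treatment, robust quasi-likelihood test), with 12 blocks (line by day) and a separate effect of alectinib for each line. A test with 2 degrees of freedom compared lines. DMSO levels were compared over 12 libraries with day as a term, and slopes were taken on log2 day. P-values were adjusted by Benjamini-Hochberg over all 14264 genes tested, with a threshold of 0.05. Deviations of same-day DMSO and alectinib libraries from their group means correlated between -0.300 and 0.549; the day comes from the labels. Log2 CPM for correlations used a prior count of 2. The alternatives were DESeq2 1.42.0 (Wald test), edgeR with those size factors, scaling by library size alone, no filter, at least 10 counts in every library, each day left out, no day block, each line fitted alone and all 26 libraries; days 1 and 2 only and days 3 and 5 only were added after seeing the data. Positions and exon lengths come from GENCODE M21 on GRCm38 (mm10), the release not being known to be the authors'. Promoter windows come from RefSeq on GRCm38.p6, in which all members but Pvr matched. The members and lists were chosen with earlier results of these data known. From each list the text names up to 2 genes with the largest rise and 2 with the largest fall among those past the threshold, and for each tested member the 3 genes with the nearest pattern after line means were subtracted. The tests were checked on simulated counts. Of 200 simulated alectinib effects of log2 size 1.5 in EA1, 140 were recovered there and 96 by the test of a difference between lines. The slope of the effect in EA3 was recovered for 104 of 200. The values of 1 listed gene and 1 detail of the origin of the lines are not reported here.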

Additional observations from a re-analysis of the deposited data

Results flagged for a closer look

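Of 49 groups of 4 libraries tested for a library that stands apart, 6 had one by Dixon's criterion, where chance alone gives about 1 in 20 groups. Cd276 stood low in the EA1 DMSO library of day 5 (76.1 CPM) and in the EA1 alectinib library of day 1 (110 CPM). Cd47 stood high in the EA3 alectinib library of day 5 (370.1 CPM), and Nt5e in the EA2 alectinib library of day 3 (69.1 CPM). Lgals9 stood low in the EA2 DMSO library of day 3 (11.5 CPM). Vtcn1 was at 0 CPM in the EA1 DMSO library of day 3.

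The effect of alectinib on Cd276 differed between lines in the test of the difference itself, by -1.99 on the log2 scale for EA2 minus EA1 and by 1.39 for EA3 minus EA2, with an adjusted p of 0.00169 over the 3 lines by edgeR. In EA1 all 4 days were higher with alectinib, and in EA2 all 4 days were lower.

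The 2 libraries labelled EA3 day 7 were not part of the comparisons. Cd47 had 257.9 CPM in the library labelled EA3 alectinib day 7 and 180.3 CPM in the one labelled EA3 DMSO day 7, and Lgals9 had 92.1 and 8.20 CPM. Each is 1 library, with no replicate. Over 14264 genes, the library labelled EA3 DMSO day 7 correlated with DMSO libraries of EA2 at r = 0.942 to 0.977 and with those of EA3 at 0.857 to 0.889, and the library labelled EA3 alectinib day 7 correlated with alectinib libraries of EA2 at 0.960 to 0.988 and with those of EA3 at 0.852 to 0.871.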

How the results depend on the processing

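No call of a member reversed under any alternative. Lgals9 passed in each line and Cd276 in EA2 under all 14 alternatives. Members called higher in EA1 (2) numbered 1 to 2 with a day left out and 1 with all 26 libraries or days 1 and 2 only; the 1 lower numbered 0 to 1, and 0 with days 1 and 2 only. In EA2 the 2 higher became 1 to 2 with a day left out, and 1 without the day block, with days 1 and 2 only or with days 3 and 5 only. In EA3 the 2 higher became 3 with library size alone and 1 with at least 10 counts in every library or days 3 and 5 only, and the 1 lower became 2 with DESeq2, no filter, no day block, all 26 libraries or days 3 and 5 only, 0 with days 1 and 2 only and 0 to 2 with a day left out. Over all genes, with a day left out, with days 1 and 2 only and with days 3 and 5 only, the EA1 calls were 1436 to 2181, 1018 and 1679 higher (from 2565) and 1360 to 1907, 841 and 1231 lower (from 2255), the EA2 calls 1157 to 1349, 759 and 843 higher (from 1855) and 985 to 1306, 658 and 759 lower (from 1609), and the EA3 calls 1447 to 2053, 1463 and 952 higher (from 2348) and 1389 to 1836, 1472 and 990 lower (from 2254). These settings fit fewer libraries. The difference of the effect between lines (1 member, 1005 genes) gave 3 and 2698 with no filter, 0 and 0 with days 1 and 2 only, 2 and 320 with days 3 and 5 only, 1955 genes with DESeq2, 398 with all 26 libraries and 211 to 792 with a day left out. DMSO line differences over all genes (7829) became 5066 with at least 10 counts and 5484 to 7490 with a day left out. The change of the effect over days (0 members, 12 genes) gave 2 and 655 with DESeq2, 2 and 150 with no filter, 1 and 54 with at least 10 counts, 4 genes with library size alone, and 0 to 2 and 0 to 123 with a day left out. The DMSO slopes (1 and 982) gave 4 and 2362 with DESeq2, 4 and 2254 with no filter, 3 members with at least 10 counts, and 0 to 4 and 0 to 2449 with a day left out. The alectinib slopes (0 and 105) gave 987 genes with DESeq2, 249 with no filter, 25 with at least 10 counts, and 0 to 1 and 0 to 1101 with a day left out. The cause was not tested. Without the day block, DMSO line differences were called for 5 members rather than 7. Depth limited Cd274 in EA1, Cd80 in EA2 and EA3, Vtcn1 in EA1 and EA2 and Pdcd1lg2 in all lines.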

Other observations

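Over the 24 libraries, after subtracting line means, log2 CPM of Lgals9 ran most closely with Irgm1 (Pearson r = 0.97), an interferon-induced GTPase gene, Zc4h2 (0.97) and Fzd2 (0.97). That of Pvr ran with Cln8 (0.95), Zfp697 (0.94) and Igf2bp2 (0.94), that of Cd276 with Gas2 (0.89), Fam83g (0.86) and Vangl2 (0.85), that of Nt5e with Smyd3 (0.91), Lonrf1 (0.90) and Kif21b (0.89), that of Cd47 with Arhgap12 (0.88), Tbc1d23 (0.88) and Lrig2 (0.87), and that of Nectin2 with Smim19 (0.87), Ctsd (0.86) and Tor3a (0.84). Among the low genes, that of Vtcn1 ran with Cpe (0.87), Znrf1 (0.85) and Apbb3 (0.84), that of Cd274 with Tanc2 (0.80), Flcn (0.78) and Fnip1 (0.76), and that of Cd80 with 2610301B20Rik (0.72), Pex11A (0.71) and Gm26809 (0.70). These are the nearest of at least 9926 genes and the libraries share days, lines and treatments, so that they are descriptions.

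In the libraries labelled EA3 day 7, Cd276 had 115 CPM with DMSO and 36.2 CPM with alectinib, Pvr 147 and 61.6 CPM, Nt5e 55.5 and 15.6 CPM, Nectin2 38.2 and 33.1 CPM, and Cd274 3.41 and 1.70 CPM, each from 1 library. Pdcd1lg2 had 1 count in the library labelled EA3 DMSO day 7.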
